A study of Mus musculus with 9 samples.

Results

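The 9 genes described here are transcription factors of the myeloid lineage, Spi1, Cebpa, Cebpb, Cebpd, Klf2, Klf4, Klf6, Nr4a1 and Pou2f2. They were taken by name from a list, with no threshold on their values, out of the 23238 gene symbols that each count table holds. All 9 passed the filter on low counts, as did 10107 genes in all. Their levels were measured in 9 libraries of sorted mouse monocytes, 3 libraries a group, each from a pool of 5 mice. All mice were female wild-type C57BL/6N of 12 weeks, without a transgene. Nor_Bl_mono are monocytes from the blood of normal mice. NMO_Bl_mono and NMO_Br_mono are monocytes from the blood and from the brain of mice that received an injection of antibody of patients with neuromyelitis optica (NMO-IgG) together with human complement into the brain, taken on day 1. The sort kept cells positive for CD45, CD11b and Ly6C and negative for P2ry12, a microglial marker, and Ly6G, a neutrophil marker. The study's results give the cells as Ly6C-positive, whereas its methods give them as Ly6C-high. Brain cells were released by enzymes at 37 °C, and blood cells were taken from a density gradient, so tissue and preparation cannot be told apart. Brain monocytes of normal mice and mice injected with a control antibody were not analysed here, so NMO-IgG, complement and the injection itself cannot be told apart either.

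PU.1, the product of Spi1, and C/EBPα, the product of Cebpa, are known to open the enhancers that make a progenitor cell a monocyte or a granulocyte, and they remain on in mature monocytes. C/EBPβ and C/EBPδ are leucine zipper factors of the same family that act in inflammatory gene induction. Krüppel-like factors are zinc finger proteins, of which KLF2 is known to hold monocytes quiescent, KLF4 to support formation of Ly6C-high monocytes, and KLF6 to act in inflammatory macrophages. NUR77, the product of Nr4a1, is an orphan nuclear receptor that is induced within minutes of stimulation and is required for Ly6C-low monocytes. OCT2, the product of Pou2f2, is an octamer-binding factor best known from B cells.

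The libraries held 7584649 to 10419647 counts. Between 28.4% and 43.6% of them fell on the ribosomal RNA gene Rn45s, and the 9 factors took 0.243% to 0.423%. Levels are given as CPM, the counts of a gene scaled to a common library size with TMM factors, a TMM factor being edgeR's correction for differences in RNA composition. The third NMO_Bl_mono library stood apart. It held 4567 detected genes against 6473 to 11556 in the others, its TMM factor was 1.46 against 0.800 to 1.08, and 22.3% of the genes at 50 CPM or more in both other libraries of its group had at most 3 counts in it, against 0% to 8.26% elsewhere. Cebpa, Cebpd and Pou2f2 had 0 counts there. A floor of 3 counts is 0.273 CPM in that library and covers counting error alone, not the loss of genes just described. Genes of monocytes were present in every group, with all 10 markers detected and their sum at 2949 to 6202 CPM in NMO_Bl_mono, 4875 to 6556 in Nor_Bl_mono and 3998 to 7452 in NMO_Br_mono.

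No factor differed between groups after adjustment over the 10107 genes. Brain monocytes against blood monocytes of the same mouse model gave 0 of 9 factors at an adjusted p under 0.05 by edgeR's quasi-likelihood test, where 0.247% of all genes were called. At the unadjusted threshold, a p under 0.05 with a fold of at least 1.2, it was also 0 of 9, where 5.32% of all genes passed. NMO_Bl_mono against Nor_Bl_mono gave 0 of 9 at both thresholds, where 0% and 0.712% of all genes passed, and NMO_Br_mono against Nor_Bl_mono gave 0 of 9 at both, where 0.247% and 5.82% passed. Limma-voom called 0 of 9 after adjustment in each of these comparisons too, and DESeq2 called 0 of the 8 factors to which it gave a p, which leaves out Cebpd. Limma-voom put Cebpd past the unadjusted threshold in both comparisons of brain with blood, and DESeq2 put 0 of the other 8 past it. The intervals were wide and show what could have been missed. The standard error of a log2 fold change between brain and blood had a median of 0.60 over the 9 factors and 2.29 over all genes. The estimates leaned upward in brain, with 6 of 9 factors higher than in NMO_Bl_mono and a median log2 difference of 0.95, against 0.05 for all genes, of which 51.4% were higher. Without the third NMO_Bl_mono library 5 of 9 were higher, with a median of 0.51, and without the first brain library the median was 0.41. Compared with normal blood, 6 of 9 were higher in the brain, with a median of 0.28 against -0.12 for all genes. In NMO_Bl_mono 3 of 9 were higher than in Nor_Bl_mono, with a median of -0.47 against -0.16 for all genes.

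**Figure D1:**
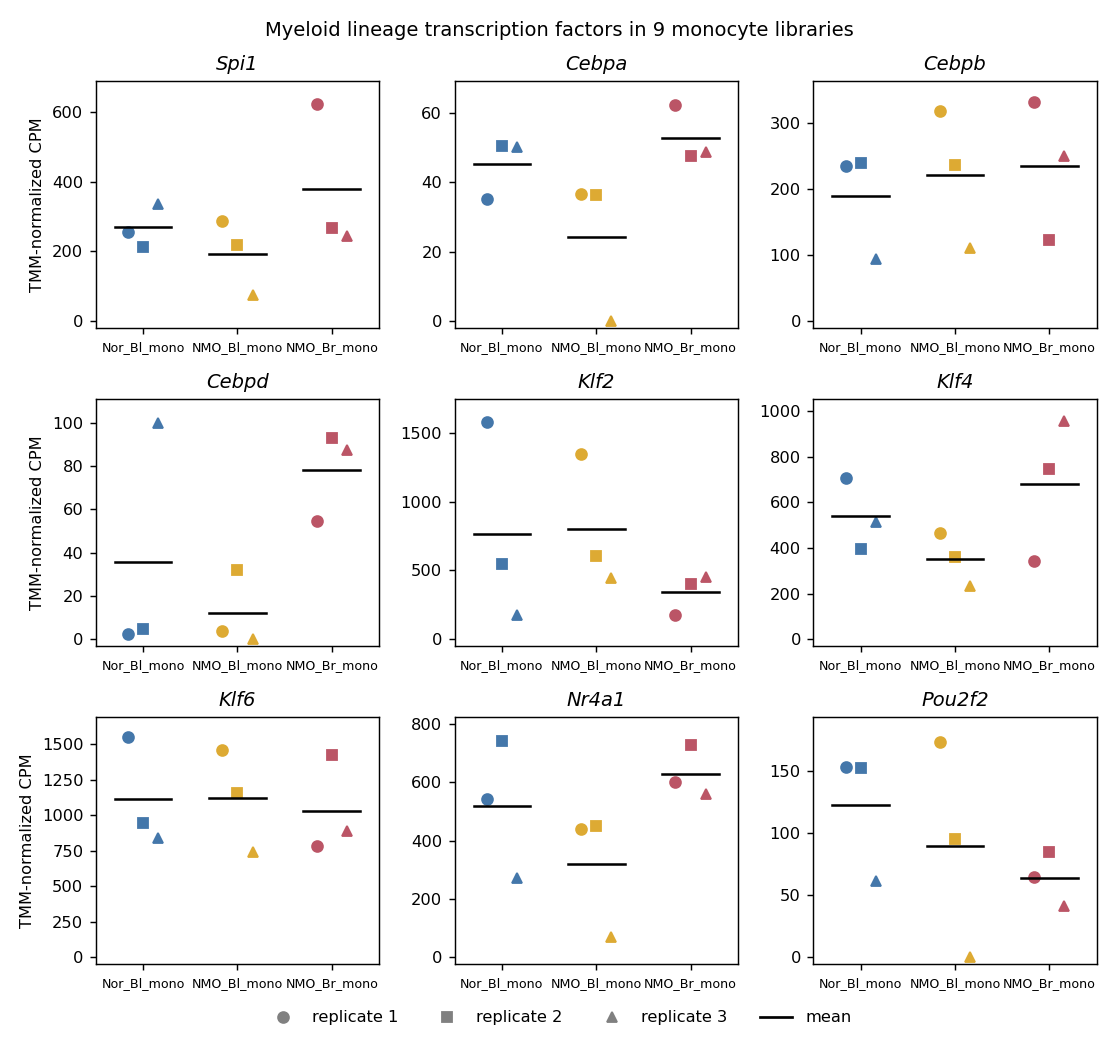
TMM-normalized CPM of each factor in the 9 libraries, with a linear axis for each gene, 1 symbol for each replicate and a line at the mean of the 3 libraries of a group. Cebpa, Cebpd and Nr4a1 lie higher in all 3 NMO_Br_mono libraries than in any NMO_Bl_mono library, and the third NMO_Bl_mono library is the lowest of its group for all 9 genes on this scale.

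Spi1 and Cebpa, the lineage-determining pair, were expressed in monocytes of all 3 groups. Spi1 (chr2:91082390-91115756, plus strand, GRCm38) was at 257, 213 and 336 CPM in Nor_Bl_mono, at 287, 219 and 74.6 in NMO_Bl_mono, and at 622, 268 and 245 in the brain. The first brain library was far above all others, the third NMO_Bl_mono library far below, and the remaining 7 lay between 213 and 336 CPM. The group means were 269 ± 62.7 CPM in normal blood, 193 ± 108 in NMO blood and 378 ± 211 in the brain (mean ± SD, n = 3). The log2 difference of NMO_Br_mono from NMO_Bl_mono was 0.97 (95% interval -0.25 to 2.19, adjusted p = 0.893). Against Nor_Bl_mono the brain value was 0.49 (SE 0.57, adjusted p = 1). The brain library values overlapped those of both blood groups, and the order of the means, brain, normal blood, NMO blood, was within the spread of the libraries.

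Cebpa (chr7:35119293-35121928, plus strand, a gene of 1 exon) was at 35.2, 50.4 and 50.1 CPM in Nor_Bl_mono, at 36.7, 36.3 and 0 in NMO_Bl_mono, and at 62.2, 47.7 and 48.8 in the brain. Each brain library was above each NMO_Bl_mono library, but the nearest pair was 47.7 against 36.7 CPM. Brain and normal blood overlapped, with 2 of 3 Nor_Bl_mono libraries above the lower 2 brain libraries. The means were 45.2 ± 8.66 CPM in normal blood, 24.3 ± 21.1 in NMO blood and 52.9 ± 8.05 in the brain (mean ± SD, n = 3). The log2 difference of brain from NMO_Bl_mono was 1.12 (95% interval -2.43 to 4.67, adjusted p = 1). The ratio of means was 2.17 with the library of 0 counts and 1.45 without it. Leaving out 1 library at a time gave log2 differences from 0.55 (without that library) to 1.54 (without NMO_Bl_mono 2). The antisense gene Gm45091 overlaps Cebpa, and the use of strand in counting is not given in the sources used here, so reads of the pair cannot be told apart.

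The C/EBP members that respond to inflammation differed from each other in pattern. Cebpb (chr2:167688915-167690418, plus strand, 1 exon, within the span of Tmem189 on the other strand) was at 236, 239.8 and 93.9 CPM in Nor_Bl_mono, at 319, 237 and 112 in NMO_Bl_mono, and at 332, 123 and 251 in the brain. Each group held 1 library near 100 CPM and others above 230, so the groups overlapped almost fully. In each group the low library was the one with the fewest detected genes. These were Nor_Bl_mono 3 with 7495 genes, NMO_Bl_mono 3 with 4567 and NMO_Br_mono 2 with 6473. The means were 189.8 ± 83.1 CPM in normal blood, 222 ± 104 in NMO blood and 235 ± 105 in the brain (mean ± SD, n = 3), and the log2 difference of brain from NMO_Bl_mono was 0.08 (95% interval -1.20 to 1.36, adjusted p = 1).

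Cebpd (chr16:15887286-15891031, plus strand, 1 exon, within the span of Spidr on the other strand) varied most in blood, with a coefficient of variation of 157% in Nor_Bl_mono and 146% in NMO_Bl_mono. It was at 2.30, 4.54 and 99.7 CPM in Nor_Bl_mono, at 3.92, 32.1 and 0 in NMO_Bl_mono, and at 54.6, 93.2 and 87.3 in the brain. All 3 brain libraries were above all 3 NMO_Bl_mono libraries, the nearest pair being 54.6 and 32.1 CPM. In normal blood 2 libraries were near the low end and the third, at 99.7 CPM, was the highest of all 9. The means were 35.5 ± 55.6 CPM in normal blood, 12 ± 17.5 in NMO blood and 78.4 ± 20.8 in the brain (mean ± SD, n = 3). The log2 difference of brain from NMO_Bl_mono was 2.70 (95% interval -1.52 to 6.93, adjusted p = 1), the ratio of means being 6.53, and 4.35 without the third NMO_Bl_mono library. Leaving out 1 library at a time gave log2 differences from 2.13 (without NMO_Bl_mono 3) to 5.33 (without NMO_Bl_mono 2, the NMO blood library with the most Cebpd). Against Nor_Bl_mono it was 1.14 (SE 1.87, adjusted p = 1). Without the third Nor_Bl_mono library it was 4.52, and the 2 remaining normal libraries then lay below all brain libraries. These values of Cebpd rest on 16 to 980 counts in the 8 libraries where it was detected, so counting error is small beside the differences between libraries.

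Expressed as a share of the counts of Cebpa, Cebpb and Cebpd together, a measure that does not use the library scaling, Cebpd took 12.2%, 35.3% and 22.5% in the brain libraries. It took 1.09%, 10.5% and 0% in NMO_Bl_mono, and 0.842%, 1.54% and 40.9% in Nor_Bl_mono. The 0 of 1228 counts in the third NMO_Bl_mono library has a 95% Wilson upper limit of 0.312%. The 95% Wilson intervals of the brain shares were 11.2% to 13.2%, 33.5% to 37% and 21.3% to 23.9%, and that of the highest NMO_Bl_mono library was 9.43% to 11.7%. These intervals cover counting error alone. Each brain share was above each NMO blood share, but the nearest pair was 12.2% and 10.5%, and the Wilson intervals of these 2 overlapped. Those of normal blood ran from 0.842% to 40.9%. The shares were chosen after the values were seen and are given without a test.

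**Figure D2:**
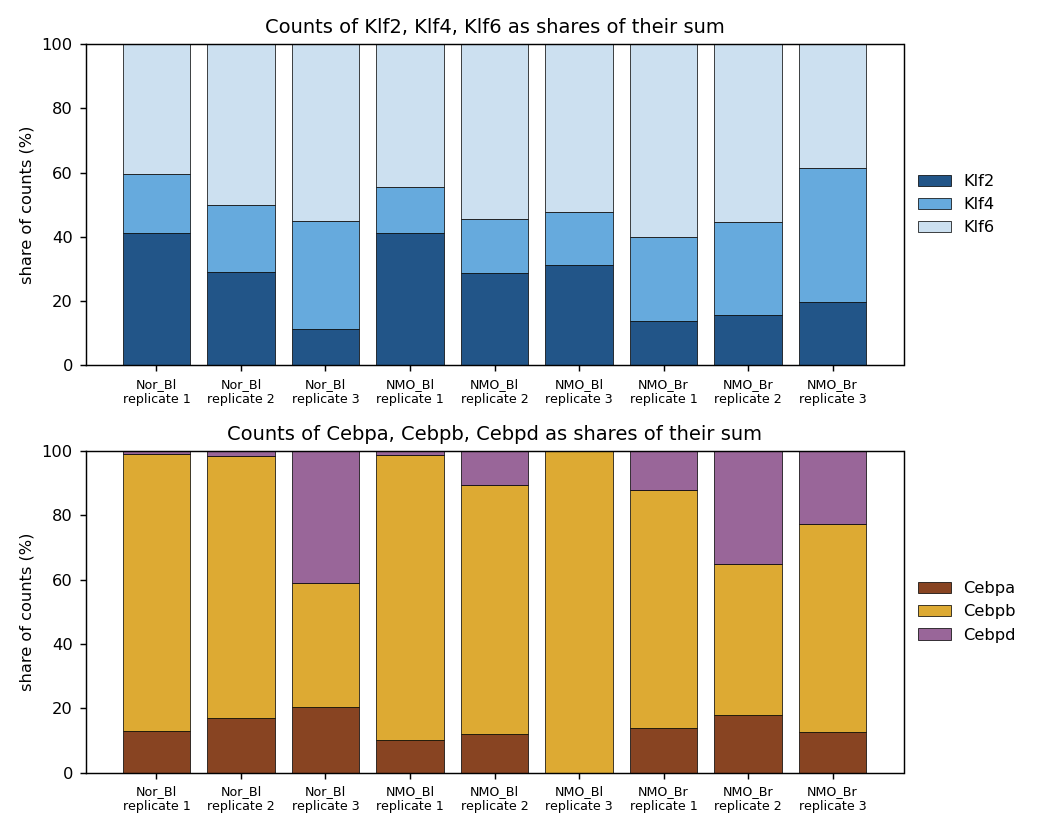
Share of counts (%) of Klf2, Klf4 and Klf6 in their sum (top) and of Cebpa, Cebpb and Cebpd in their sum (bottom), as stacked bars for each of the 9 libraries. The Klf2 share is 13.7% to 19.6% in the brain libraries and 28.6% to 41.3% in the NMO_Bl_mono libraries, and the third Nor_Bl_mono library, at 11.4%, falls with the brain libraries.

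Among the Krüppel-like factors, the estimates of Klf2 and Klf4 between brain and NMO blood had opposite signs, and neither passed a threshold. Klf2 (chr8:72319033-72321656, plus strand) was at 1578, 548 and 174 CPM in Nor_Bl_mono, at 1351, 607 and 442 in NMO_Bl_mono, and at 178, 403 and 449 in the brain. In normal blood the highest library was 9.07 times the lowest. The brain libraries were low, and only the third, at 449 CPM, reached the lowest NMO_Bl_mono library at 442 CPM. The means were 767 ± 727 CPM in normal blood, 799.8 ± 484 in NMO blood and 344 ± 145 in the brain (mean ± SD, n = 3). The log2 difference of brain from NMO_Bl_mono was -1.22 (95% interval -2.64 to 0.20, adjusted p = 0.815), and from Nor_Bl_mono -1.16 (95% interval -2.58 to 0.26, adjusted p = 0.794). Without the first NMO_Bl_mono library the difference from NMO blood was -0.61, and without the first Nor_Bl_mono library, the highest of its group, that from normal blood was -0.073. Increases of more than 0.20 over NMO blood and 0.26 over normal blood, on the log2 scale, are outside the intervals.

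Klf4 (chr4:55527143-55532466, minus strand) was at 708, 396 and 514 CPM in Nor_Bl_mono, at 465, 360.2 and 235 in NMO_Bl_mono, and at 341, 746 and 957 in the brain. Brain libraries 2 and 3 were the highest of all 9, but the first brain library, at 341 CPM, was inside the range of NMO blood. The means were 539 ± 158 CPM in normal blood, 353 ± 115 in NMO blood and 681 ± 313 in the brain (mean ± SD, n = 3). Of the 9 factors Klf4 had the smallest p between brain and NMO blood, with a log2 difference of 0.95 (95% interval -0.02 to 1.91, adjusted p = 0.802). Without the first brain library it was 1.27, past the unadjusted threshold but with an adjusted p of 0.575 by edgeR. Against Nor_Bl_mono the brain value was 0.34 (SE 0.45, adjusted p = 1).

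Klf6 (chr13:5861482-5870394, plus strand) had nearly equal means in the 3 groups, 1112 ± 386 CPM in normal blood, 1118 ± 358 in NMO blood and 1032 ± 345 in the brain (mean ± SD, n = 3). It was at 1554, 943 and 839 CPM in Nor_Bl_mono, at 1458, 1152 and 744 in NMO_Bl_mono, and at 781, 1425 and 889 in the brain, and the groups overlapped fully. It had the narrowest intervals of the 9 factors. The log2 difference of brain from NMO_Bl_mono was -0.12 (95% interval -0.90 to 0.66, adjusted p = 1) and that of NMO_Bl_mono from Nor_Bl_mono was 0.01 (95% interval -0.77 to 0.79, adjusted p = 1), so changes of more than 0.90 downward or 0.79 upward on the log2 scale are outside both intervals.

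The ratio of Klf2 to Klf4 counts within a library, chosen after the values were seen and given without a test, was 0.523, 0.541 and 0.470 in the brain. It was 2.90, 1.68 and 1.88 in NMO_Bl_mono, above all 3 brain libraries, and 2.23, 1.38 and 0.339 in Nor_Bl_mono, where the third library was below all others. The ratio of Klf4 to Klf6 was 0.319, 0.313 and 0.315 in NMO_Bl_mono, a far closer agreement than either gene showed in CPM, and 0.436, 0.523 and 1.08 in the brain. In Nor_Bl_mono it was 0.456, 0.420 and 0.612. Since the same 2 genes are compared in each library, gene length and library scaling cancel. The Klf2 share of the counts of these 3 factors was 13.7% (95% Wilson interval 13.1% to 14.4%), 15.7% (15.2% to 16.1%) and 19.6% (19.1% to 20.1%) in the brain libraries, against 28.6% to 41.3% in NMO_Bl_mono.

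Nr4a1 (chr15:101254269-101274795, plus strand) was tightly grouped in the brain. It was at 544, 743 and 273 CPM in Nor_Bl_mono, at 438, 452 and 71.0 in NMO_Bl_mono, and at 599.8, 728 and 562 in the brain, so all 3 brain libraries were above all 3 of NMO blood, the nearest pair being 562 and 452 CPM. Normal blood spanned the brain values, from 273 to 743 CPM. The means were 520.1 ± 236 CPM in normal blood, 320.4 ± 216 in NMO blood and 630.0 ± 87.3 in the brain (mean ± SD, n = 3), and the highest brain library was 1.30 times the lowest, against 6.36 times in NMO_Bl_mono. The log2 difference of brain from NMO_Bl_mono was 0.98 (95% interval -0.27 to 2.22, adjusted p = 0.914). Leaving out the third NMO_Bl_mono library lowered the ratio of means from 1.97 to 1.42. Against Nor_Bl_mono the log2 value was 0.28 (SE 0.58, adjusted p = 1), and it was -0.02 without the third Nor_Bl_mono library.

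Pou2f2 (chr7:25087344-25179726, minus strand, overlapped by Mir6537 on the same strand and D930028M14Rik on the other) was at 153, 152 and 61.6 CPM in Nor_Bl_mono, at 174, 95 and 0 in NMO_Bl_mono, and at 64.3, 84.7 and 41.4 in the brain. The brain libraries were below 4 of the 5 blood libraries in which it was detected, and the third Nor_Bl_mono library, at 61.6 CPM, lay among them. The means were 122 ± 52.7 CPM in normal blood, 89.5 ± 86.9 in NMO blood and 63.5 ± 21.7 in the brain (mean ± SD, n = 3). The log2 difference from NMO_Bl_mono was -0.50 (95% interval -3.53 to 2.54, adjusted p = 1). It was -1.07 without the third NMO_Bl_mono library and 0.42, of opposite sign, without the first. The ratio of means was 0.709, and 0.473 without the library with 0 counts, in which case brain and NMO blood did not overlap.

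Of the 9 factors, then, 3 had brain libraries wholly above NMO_Bl_mono and 0 wholly below. Of all genes tested, 6.3% were wholly above and 6.05% wholly below, 12.3% in either direction. Which factors separated depended on the scaling and on single libraries. With library sizes alone Spi1 (above) and Klf2 (below) joined, making 5 of 9 where 12.4% of all genes separated, and with RLE factors Klf2 joined. Without the third NMO_Bl_mono library the count was also 5 of 9, with Klf2 and Pou2f2 below, where 26.4% of all genes separated. Cebpa, Cebpd and Nr4a1 separated upward under each of these. Between NMO_Bl_mono and Nor_Bl_mono 0 of 9 factors separated, where 6.8% of all genes did. Between NMO_Br_mono and Nor_Bl_mono it was 0 of 9 as well, where 15.4% of all genes did.

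**Figure D3:**
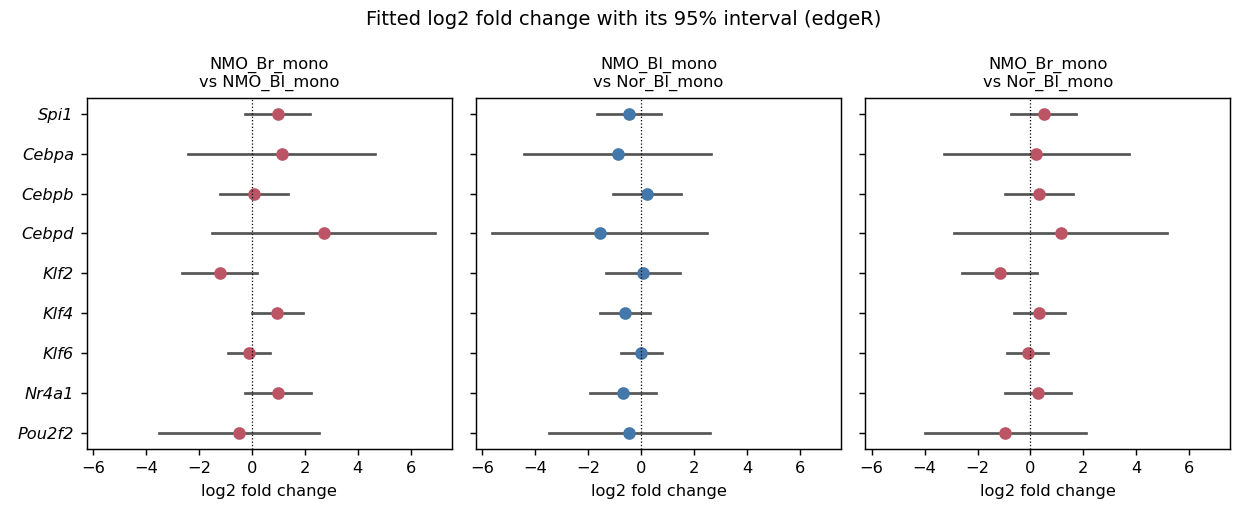
Fitted log2 fold change (points) with its 95% interval (lines) for each factor in 3 comparisons, from edgeR's quasi-likelihood fit on all 9 libraries. All the intervals include 0, and the intervals of Cebpa, Cebpd and Pou2f2, the genes with 0 counts in a library, are the widest.

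In blood, where the comparison asks whether circulating monocytes differ a day after the brain injection, the largest estimates were those of Cebpd and Cebpa, which had 0 counts in the third NMO_Bl_mono library. Klf4 had the smallest p of the 9, with a log2 difference of NMO_Bl_mono from Nor_Bl_mono of -0.61 (95% interval -1.57 to 0.35, adjusted p = 1). For Nr4a1 it was -0.70 (95% interval -1.94 to 0.54, adjusted p = 1). Spi1 gave -0.47 (SE 0.57, adjusted p = 1), Cebpb 0.23 (SE 0.60, adjusted p = 1) and Klf2 0.06 (SE 0.65, adjusted p = 1). The 2 brain comparisons share the brain libraries, and the comparisons of NMO_Bl_mono share those too, so their values are not independent of each other. Against both blood groups together, the brain gave 0 of 9 factors after adjustment, where 0.435% of all genes were called, and 0 of 9 at the unadjusted threshold, where 6.89% passed. No factor separated from all 6 blood libraries, where 6.7% of all genes did. Klf2 had the smallest p here, with a log2 value of -1.19 (95% interval -2.47 to 0.09, adjusted p = 0.618).

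The third NMO_Bl_mono library was the lowest of its group for all 9 factors, and for 8 with library sizes alone (Klf2 being the exception), the sum of their counts being 0.243% of its total against 0.321% to 0.375% in the other 2. Nor_Bl_mono 3 was the lowest of its group for Cebpb, Klf2, Klf6, Nr4a1 and Pou2f2 and the highest for Spi1 and Cebpd. In bulk libraries such as these, fewer cells of a type and less RNA per cell cannot be told apart.

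Promoter sequences were matched in RefSeq for 7 of the 9 genes (GRCm38.p6), those of Spi1 and Cebpd not being among them. The 250 bases before the start site are shown, 5′ to 3′, for 3 genes on which the results turn, 2 whose brain libraries lay wholly above those of NMO blood (Nr4a1 and Cebpa) and 1 with lower estimates in the brain (Klf2). Capitals mark matches, on either strand, to TGACG, the core of a cyclic AMP response element, or to CACCC, the core bound by Krüppel-like factors. The windows are chr15:101266596-101266845 for Nr4a1, inside the annotated span of the gene, chr7:35119043-35119292 for Cebpa and chr8:72318812-72319061 for Klf2, all on the plus strand.
Nr4a1: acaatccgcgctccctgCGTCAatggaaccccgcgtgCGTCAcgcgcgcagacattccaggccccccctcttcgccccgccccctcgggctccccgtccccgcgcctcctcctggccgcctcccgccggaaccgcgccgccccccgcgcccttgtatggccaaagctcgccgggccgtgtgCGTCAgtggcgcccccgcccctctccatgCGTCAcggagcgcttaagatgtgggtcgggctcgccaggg
Cebpa: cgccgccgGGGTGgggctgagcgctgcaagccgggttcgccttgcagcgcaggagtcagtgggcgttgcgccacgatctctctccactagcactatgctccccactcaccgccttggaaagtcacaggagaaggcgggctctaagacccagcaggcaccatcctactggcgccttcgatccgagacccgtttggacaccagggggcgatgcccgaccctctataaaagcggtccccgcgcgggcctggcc
Klf2: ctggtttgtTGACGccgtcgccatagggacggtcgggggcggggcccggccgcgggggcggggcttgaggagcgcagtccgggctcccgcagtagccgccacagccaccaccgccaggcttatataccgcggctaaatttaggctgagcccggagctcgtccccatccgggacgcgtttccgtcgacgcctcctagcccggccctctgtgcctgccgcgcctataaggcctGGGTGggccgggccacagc
Nr4a1 held 4 matches to TGACG, 233, 213, 69 and 40 bases before the start. At least 3 matches occurred in 1.03% of the 32851 mouse promoter windows of 300 bases (250 before to 50 after the start), and at least 1 in 20.8%. Klf2 held 1, and Cebpa 0. Cebpb had 3 matches and Klf4 had 1, so 4 of the 7 promoters held the motif. CACCC was found in 4 of 7, among them Cebpa and Klf2, where 57.5% of all windows hold it. Another 4 motifs were searched on both strands. The letters GAGGAA of PU.1 were in 1 of 7 (Pou2f2), where 28.3% of all windows hold them. The motifs TTGCNNAA of C/EBP factors (10.8%), AAAGGTCA of NR4A receptors (1.51%) and the octamer ATGCAAAT (1.74%) were in 0 of 7. In Cebpb 1 match to TGACG overlaps 1 to CACCC. A match describes the letters only and is not evidence of binding.

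Relatives of the 9 factors gave few calls. Of 14 other Krüppel-like factor genes, 9 were tested and 0 were called between brain and NMO blood, also at the unadjusted threshold, with 3 higher and 6 lower. Klf13, the most abundant of them, was at 724, 810.3 and 760.5 CPM in Nor_Bl_mono, at 761, 894 and 581 in NMO_Bl_mono, and at 554, 370.0 and 494 in the brain, so the brain libraries lay below all 6 blood libraries, with a log2 difference from NMO_Bl_mono of -0.66 (SE 0.33, adjusted p = 0.802). Klf9 was at 389, 493 and 355 CPM in Nor_Bl_mono, at 401, 415 and 353 in NMO_Bl_mono, and at 67.2, 325 and 155 in the brain, again lower in all 3 brain libraries, with -1.10 (SE 0.53, adjusted p = 0.802). Like Klf2, both had negative estimates in the brain. Klf3 and Klf10 overlapped between brain and NMO blood.

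Of the other C/EBP genes 2 of 3 were tested, Ddit3 (CHOP, a stress-induced partner of the family) and Cebpg, and neither passed either threshold. Ddit3 was at 143, 63.3 and 66.7 CPM in Nor_Bl_mono, at 126, 94.5 and 0.909 in NMO_Bl_mono, and at 102, 101 and 125 in the brain. Of the NR4A receptors Nr4a2 and Nr4a3, 0 passed either threshold. Nr4a2, unlike Nr4a1, was lower in 2 of 3 brain libraries than in any blood library, at 182, 257 and 129 CPM in Nor_Bl_mono, at 133, 200.5 and 134 in NMO_Bl_mono, and at 163, 37 and 80.6 in the brain, with a log2 difference from NMO_Bl_mono of -0.73 (SE 0.66, adjusted p = 1). Pou2f1 and Pou2af1 (OCT1 and the OCT co-activator OBF1) were tested and 0 passed either threshold, with Pou2af1 at 0 in all 3 brain libraries and in 3 of 6 blood libraries.

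ETS factors, the family of PU.1, had 12 of 13 genes tested, 4 higher and 8 lower in the brain than in NMO blood, with 0 called and 2 past the unadjusted threshold, both lower. Ets1, best known from lymphocytes, was at 199.7, 181 and 95.6 CPM in Nor_Bl_mono, at 214, 162 and 304 in NMO_Bl_mono, and at 8.37, 34.0 and 11.6 in the brain, far below all blood libraries in all 3 brain libraries. Its log2 difference from NMO_Bl_mono was -3.65 (SE 0.77, adjusted p = 0.0848). Of the 4 most abundant ETS genes it was the only one that separated brain from both blood groups.

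Among 32 other regulators of monocytes and macrophages, 30 were tested. Irf8, a PU.1 partner that is required for monocyte formation, was the 1 called between brain and NMO blood, and 5 passed the unadjusted threshold, 2 higher and 3 lower. It was at 1642, 1290.0 and 1557 CPM in Nor_Bl_mono, at 1279, 1431 and 1877 in NMO_Bl_mono, and at 265, 137 and 192 in the brain, so that the highest brain library, at 265 CPM, was far under the lowest blood library, at 1279. It fell by 2.95 on the log2 scale (SE 0.34, adjusted p = 0.00183) against NMO_Bl_mono and fell by 2.92 (adjusted p = 0.00205) against Nor_Bl_mono in edgeR's test. Id2, an inhibitor of basic helix-loop-helix factors, was at 1901, 1809 and 2549 CPM in Nor_Bl_mono, at 1882, 1776 and 1859 in NMO_Bl_mono, and at 694, 1280.1 and 662 in the brain, lower in all brain libraries, with a log2 difference from NMO_Bl_mono of -1.07 (SE 0.30, adjusted p = 0.354). Of the list's tested genes 22 were higher and 8 lower in the brain than in NMO blood, with a median log2 difference of 0.72 against 0.05 for all genes. Compared with normal blood, 19 were higher and 11 lower, with a median of 0.24 against -0.12 for all genes. Stat3 and Zeb2 overlapped between brain and NMO blood.

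**Figure D4:**
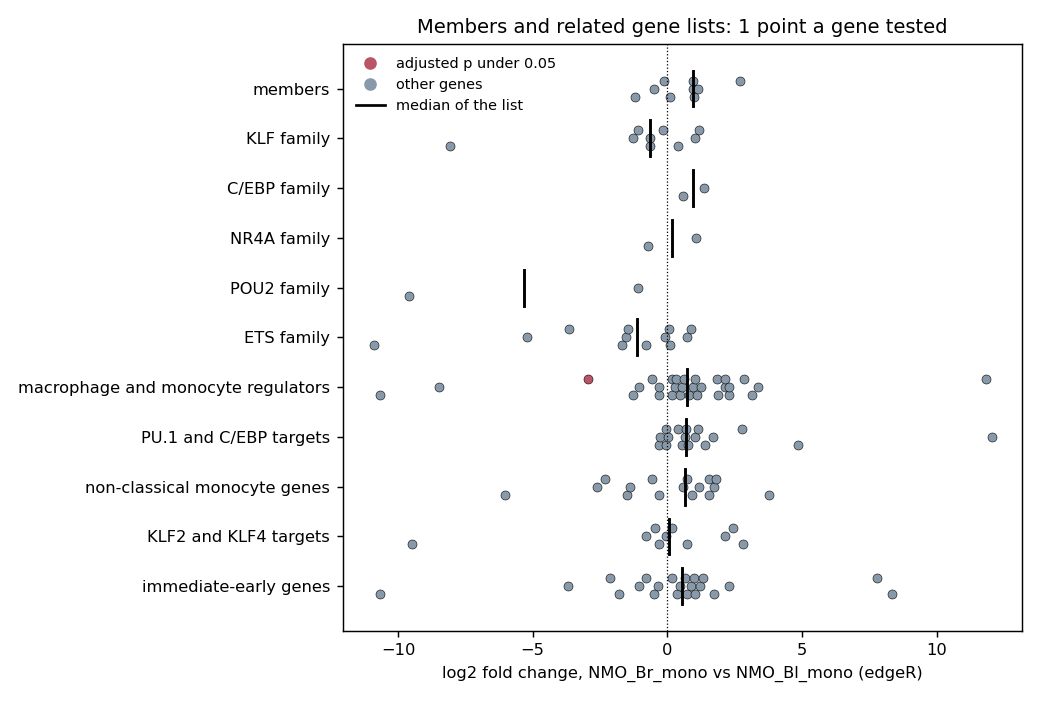
Log2 fold change of NMO_Br_mono against NMO_Bl_mono for each tested gene of the 9 factors and of 10 related lists, 1 point a gene, with a line at the median of each list. Irf8, among the macrophage and monocyte regulators, is the 1 gene with an adjusted p under 0.05.

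Genes known to be driven by these factors were followed as lists. Of 17 tested targets of PU.1 and C/EBP factors, 13 were higher and 4 lower in the brain than in NMO blood, with 0 called, 2 past the unadjusted threshold (both higher) and a median log2 difference of 0.69. Compared with normal blood, 12 were higher and 5 lower, with a median of 0.58. Csf1r, the receptor for macrophage colony-stimulating factor, was at 834, 688 and 454 CPM in Nor_Bl_mono, at 727, 567 and 167 in NMO_Bl_mono, and at 1364, 766 and 825 in the brain, above all NMO_Bl_mono libraries in all 3 brain libraries, with 1.02 (SE 0.48, adjusted p = 0.802). Lyz2 (lysozyme), Fcer1g and Tyrobp (signalling adaptors) overlapped between the groups, and their log2 differences were -0.30, 0.53 and -0.06.

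Of 10 tested targets of KLF2 and KLF4, 5 were higher and 5 lower, with 0 past either threshold and a median log2 difference of 0.06. Mcl1, a survival factor, was at 819, 1045 and 500.4 CPM in Nor_Bl_mono, at 935, 1095 and 612 in NMO_Bl_mono, and at 658, 811 and 656 in the brain. Cdkn1a (p21) was at 496, 539.8 and 431 CPM in Nor_Bl_mono, at 555, 459 and 36.1 in NMO_Bl_mono, and at 473, 642 and 642 in the brain, and the third NMO_Bl_mono library alone was low. Neither separated the groups.

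Genes of Ly6C-low, non-classical monocytes, the subset that depends on NR4A1, had 16 of 16 tested and 0 called between brain and NMO blood, 9 higher and 7 lower, with a median of 0.66 and 2 past the unadjusted threshold, both lower. Compared with normal blood, 7 were higher and 9 lower in the brain, with a median of -0.34. The most abundant was Nfkbia, the NF-κB inhibitor, at 9311, 8189 and 1737 CPM in Nor_Bl_mono, at 9081, 8252 and 1417 in NMO_Bl_mono, and at 1656, 3124 and 1783 in the brain. The third library of each blood group was near or below the brain libraries, and the other blood libraries were far above them. Spn (CD43), a surface marker of that subset, was at 269, 239 and 409 CPM in Nor_Bl_mono, at 276, 267 and 349.8 in NMO_Bl_mono, and at 67.0, 55.7 and 54.3 in the brain, below all blood libraries in the brain. Its log2 difference from NMO_Bl_mono was -2.33 (SE 0.50, adjusted p = 0.0890), and against both blood groups together it fell by 2.35 (adjusted p = 0.0423). Cx3cr1 was at 322, 254 and 112 CPM in Nor_Bl_mono, at 202, 153 and 0.0909 in NMO_Bl_mono, and at 544, 297 and 337 in the brain, and here brain libraries were above those of NMO blood but not of normal blood. Itgal had a log2 difference of -0.56 (SE 0.48, adjusted p = 1).

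Nr4a1, Klf2, Klf4 and Klf6 are themselves quick to respond to stimuli, so 22 immediate-early and heat-shock genes were set beside them. All 22 were tested and 0 were called between brain and NMO blood, 14 being higher and 8 lower, and 7 passed the unadjusted threshold, 4 higher and 3 lower. Compared with normal blood, 10 were higher and 12 lower in the brain. Hspa1a (HSP70) was at 51.6, 22.6 and 0 CPM in Nor_Bl_mono, at 15.5, 10.3 and 0 in NMO_Bl_mono, and at 4112, 1051 and 566 in the brain, and Hspa1b was at 34.7, 0 and 0 CPM in Nor_Bl_mono, at 10.4, 7.40 and 0 in NMO_Bl_mono, and at 4239, 1051 and 380.4 in the brain. Every brain library was far above every blood library for both genes. Hspa1a was called against both blood groups together, with a log2 value of 7.03 (adjusted p = 0.0438 by edgeR). Jun was at 1558, 252 and 108 CPM in Nor_Bl_mono, at 1142, 354 and 84.0 in NMO_Bl_mono, and at 1524, 1158 and 929 in the brain, and Junb at 1904, 1308 and 726 CPM in Nor_Bl_mono, at 1468, 1451 and 657 in NMO_Bl_mono, and at 758, 761 and 1025 in the brain, with no separation from both blood groups in either. The summed level of the list was 8090 to 15587 CPM in the brain, 2364 to 10392 in NMO blood and 3741 to 13769 in normal blood. Without Hspa1a and Hspa1b it was 7143 to 8027, 2364 to 10366 and 3741 to 13683 CPM, so that the brain lay inside both blood ranges. The part of the enzymatic preparation of brain cells in the levels of Nr4a1 and the Krüppel-like factors was not tested.

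Markers of other cell types also moved with the groups. Those of NK cells, which express Klf2 and Ets1 as well, summed to 1899 to 2740 CPM in NMO_Bl_mono and 1767 to 2211 in Nor_Bl_mono but 4.30 to 275 in NMO_Br_mono, all 6 being detected in each group. Platelet markers summed to 185 to 1468 CPM over the blood groups and 0 to 39.7 in the brain, with Gp9 at 0 in all 3 brain libraries. Erythroid markers summed to 898 to 5411 CPM in blood and 1.05 to 402 in the brain, where Hba-a2 and Alas2 were at 0. T cell markers summed to 31.9 to 148 CPM in blood and 0 to 23.0 in the brain, where Cd3e, Cd4 and Cd8a were at 0. B cell markers, set beside Pou2f2, did not move with the groups and summed to 0 to 108 CPM in blood and 10.5 to 45.3 in the brain, and Cd79a was at 0 in the brain. Between the groups, the NK cell, T cell, platelet and erythroid sums moved with the lower brain estimate of Klf2. Within each blood group the third library had the highest NK cell sum (2211 CPM in Nor_Bl_mono, 2740 in NMO_Bl_mono) but the lowest Klf2 (174 and 442 CPM). That library also had the lowest T cell and platelet sums of its group, and the second the lowest erythroid sum. In the brain the first library was the lowest in both NK cell sum (4.30 CPM) and Klf2 (178 CPM). The part of these cells in the Klf2 estimate, and in the lower brain values of Ets1, Id2, Irf8 and Spn, was not tested.

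In the other direction, microglial markers summed to 380 to 571 CPM in the brain, with 8 of 8 detected, and to 0 to 74.1 in blood, where Tmem119, Olfml3 and Gpr34 were at 0. Neutrophil markers, whose cells also express Cebpd, summed to 379 to 1717 CPM in the brain and 59.6 to 256 in blood, with Retnlg and Mmp9 at 0 in the brain. Retnlg ran opposite to the sum, at 125, 84.8 and 37.8 CPM in Nor_Bl_mono and 78.9, 16.9 and 0 in NMO_Bl_mono. In the brain S100a8 was at 148, 813 and 390 CPM and S100a9 at 78.8, 660 and 433. Of the 5 neutrophil markers tested, 4 were higher and 1 lower in the brain than in NMO blood. Endothelial markers, whose cells express Klf2 and Klf4, summed to 115 to 695 CPM in the brain and 5.62 to 106 in blood. Flt1 gave 554 CPM of the highest sum, that of the third brain library, and was at 87.5 and 0 CPM in the first and second. Pecam1, at 55.6, 82.6 and 29.6 CPM in the brain, and Cdh5, at 17.8, 32.0 and 5.17, overlapped with blood. Cldn5 and Tie1 were at 0 in blood. Astrocyte markers reached 32.3 CPM, and Aqp4 was at 0 in all 9 libraries. Oligodendrocyte and neuron markers summed to at most 41.1 and 45.7 CPM in any library, both in blood. The third Nor_Bl_mono library had the lowest neutrophil sum of all 9 (59.6 CPM) and the highest Cebpd (99.7 CPM), whereas among the brain libraries the first had the lowest of both and the second the highest of both. Markers of border-associated macrophages summed to 265 to 553 CPM in the brain and 299.5 to 1241 in blood. F13a1 and Pf4, shared with monocytes and platelets, made up most of these sums. Mrc1, another of these markers, ran opposite to the sum, at 25.3 to 62.1 CPM in the brain and 0 to 15.4 in blood. Of the 4 border macrophage markers tested, 2 were higher and 2 lower in the brain than in NMO blood. The part of these cells in the higher brain estimates of Cebpd and Klf4 was not tested.

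Likeness in pattern was described by Pearson's r of log2(CPM + 1) over the 9 libraries, among genes with a mean of at least 20 CPM. The libraries share the same depths and the same low library, so values without the third NMO_Bl_mono library are given beside those with it. For Klf2 the closest were Hexim1 (0.945, and 0.948 without that library) and Nfatc1 (0.912 and 0.922). For Cebpb they were Rab4b (0.980 and 0.976) and Fpr2, a formyl peptide receptor (0.977 and 0.972), and for Cebpd Surf2 (0.951 and 0.957) and Ier3ip1 (0.949 and 0.916). For these 3 factors the likeness did not hang on the low library alone. Rab4b and Fpr2 were also at 0 CPM in Nor_Bl_mono 3 and at 4.66 and 0 in NMO_Br_mono 2, the libraries with the fewest detected genes in their groups. Leaving out NMO_Bl_mono 3 therefore cannot show whether the likeness of Cebpb depends on such libraries. For Spi1 they were Atp6v0c (0.943 and 0.830) and Dusp6 (0.943 and 0.821), and for Cebpa Mrpl52 (0.994 and 0.756) and Mprip (0.993 and 0.594), so that for Cebpa it rested on the low library. Klf4 was closest to Ppcdc (0.885 and 0.856) and Nek7 (0.882 and 0.818), Klf6 to Ogt (0.916 and 0.925) and Galnt7 (0.893 and 0.865), Nr4a1 to Slc7a1 (0.984 and 0.907) and Hook3 (0.983 and 0.900), and Pou2f2 to Supt4a (0.992 and 0.931) and Gtpbp1 (0.989 and 0.929).

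Between the factors themselves, the same low library shaped most of the likeness. Cebpa and Nr4a1 had r = 0.912 over 9 libraries and 0.214 over the 8 without it, and Cebpa and Pou2f2 0.919 and -0.59. Klf2 and Klf6 kept theirs, at 0.759 and 0.822. Klf2 and Cebpd ran opposite in both, at -0.61 and -0.81. Cebpd and Pou2f2 ran opposite only without it, with -0.91 over 8 libraries against 0.373 over 9.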

How the data were processed

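Monocytes were sorted from pools of mice, and 3′ libraries (QuantSeq, single-end) were made from total RNA of each pool. The authors aligned the reads with Bowtie2 and counted them per gene with bedtools, unique and multiple alignments included. They deposited these unscaled counts, 1 table a library with a line for each gene symbol. The submitters' processing notes name the build mm10 (GRCm38). Versions, the annotation and the use of strand in counting are not given in the sources used here. Groups and replicate numbers came from the sample labels. The methods call the replicates independent pools.

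From these counts, values were computed in R 4.3.3. Where a symbol was repeated in the table (35 symbols), its line of highest count was used. Of 23238 symbols, 10107 passed filterByExpr. The test was the quasi-likelihood test of edgeR 4.0.16 (glmQLFit, glmQLFTest). All 9 libraries entered 1 fit with TMM factors, and p-values were adjusted by Benjamini-Hochberg over all genes tested. The fitted common dispersion was 2.87. CPM values use the same factors, and a pseudocount of 1 was added for correlations. Total counts were 7584649 to 10419647 a library. Wilson intervals and floors cover counting error alone, and the intervals of log2 differences come from the fit. Positions and overlaps came from GENCODE M21 (GRCm38), and promoters from RefSeq (GRCm38.p6). The test was tried on simulated data. Alternatives were RLE factors, library sizes alone, no filter, a mean of at least 10 counts, fits on the compared groups alone, a replicate block, DESeq2 1.42.0, limma-voom (limma 3.58.1) with quality weights, leaving out Rn45s, summing repeated symbols, a pseudocount of 0.1 and leaving out each library. The count of factors without overlap, the median of the factors without single libraries and the immediate-early sum without Hspa1a and Hspa1b were added after seeing the data.

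The factors and the gene lists were chosen with earlier results of these data known. The genes named are all 9 factors, per factor the 2 genes of highest correlation, and from each related list genes among the 4 of highest mean CPM. The correlations were taken among genes with a mean of at least 20 CPM. The ratios of Klf2 to Klf4 and of Klf4 to Klf6, and the family shares were chosen after the values were seen. Markers of cell types are given as sums. Some genes of these lists are not reported here.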

Additional observations from a re-analysis of the deposited data

How the results depend on the processing

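The number of factors called after adjustment was 0 in all 4 comparisons under every alternative run, where DESeq2 gave no p for Cebpd and so tested 8, and the lowest adjusted p was 0.0769, for Klf2 against both blood groups with no filter. Differences inside the 95% intervals given for each factor are not excluded by these libraries.

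Whether the replicate numbers pair the libraries could not be decided from these values. Correlations of same-numbered libraries, as deviations from their group means, ran from -0.010 to 0.116. Those of differently numbered libraries ran from -0.096 to 0.030. The highest values (0.116, 0.069 and 0.058) were between same-numbered libraries, but not every library was closest to its own number. The first library of each group had the lowest TMM factor of its group (0.800, 0.831 and 0.855). The replicate block put 1 factor, Nr4a1, past the unadjusted threshold between brain and NMO blood (log2 difference 1.33) and 1 (Nr4a1 again) against both blood groups, moved Klf2 between brain and NMO blood from -1.22 to -0.81, and passed 30 genes between the blood groups (72 without it) and 382 between brain and normal blood (588 without it).

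Between brain and NMO blood, the 0 factors past the unadjusted threshold became 1 with RLE factors, library sizes alone, a mean of at least 10 counts and without Rn45s (Klf4 each time), 1 with the compared groups alone (Klf2), 1 with limma-voom (Cebpd) and 3 with no filter (Klf2, Klf4 and Nr4a1). Between brain and normal blood it was 1 with no filter (Klf2) and 1 with limma-voom (Cebpd). Against both blood groups it was 1 with no filter and with a mean of at least 10 counts (Klf2), and 1 with limma-voom (Cebpd). Factors without overlap numbered 5 between brain and NMO blood with library sizes alone, and 1 (Cebpa) between brain and normal blood and against both blood groups with RLE factors.

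Over all genes, brain against NMO blood gave 25 calls, which became 110 with no filter, 7 with the compared groups alone, 336 with DESeq2 and 51 with limma-voom. The 538 at the unadjusted threshold became 281 with the compared groups alone, 954 with DESeq2 and 1274 with limma-voom. Between the blood groups, 0 calls became 2 with no filter and 69 with DESeq2, and 72 at the unadjusted threshold became 149 with no filter, 37 with the compared groups alone, 243 with DESeq2 and 487 with limma-voom. Between brain and normal blood, 25 calls became 115 with no filter and 366 with DESeq2, and 588 became 1024 with DESeq2 and 1129 with limma-voom. Against both blood groups, 44 calls became 68 with library sizes alone, 181 with no filter, 76 with a mean of at least 10 counts, 495 with DESeq2 and 122 with limma-voom, and 696 became 1400, 1058, 1247 and 1291 with no filter, the mean of 10, DESeq2 and limma-voom. The cause of these differences was not tested.

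Leaving out 1 library at a time gave 15 to 36 calls and 374 to 702 genes at the unadjusted threshold between brain and NMO blood, 0 and 42 to 122 between the blood groups, 11 to 62 and 372 to 919 between brain and normal blood, and 21 to 90 and 523 to 1019 against both blood groups. The highest value of each range above 0 came without NMO_Bl_mono 3. The fewest calls came without NMO_Br_mono 3 for brain against NMO blood (15, and 16 without Nor_Bl_mono 3) and without Nor_Bl_mono 3 in the other brain comparisons, where against both blood groups leaving out NMO_Br_mono 3 gave 27. At the unadjusted threshold, the 42 came without Nor_Bl_mono 3, 48 between the same groups came without Nor_Bl_mono 2, and the 372 also came without Nor_Bl_mono 2. Factors past the unadjusted threshold ranged from 0 to 1 in the brain comparisons and stayed at 0 between the blood groups. The 1 was Klf2 without Nor_Bl_mono 1 or Nor_Bl_mono 3 and Klf4 without NMO_Bl_mono 1 or NMO_Br_mono 1 for brain against NMO blood, Klf2 without Nor_Bl_mono 3 against normal blood, and against both blood groups Klf2 without Nor_Bl_mono 2, Nor_Bl_mono 3, NMO_Bl_mono 2 or NMO_Bl_mono 3 and Klf4 without NMO_Br_mono 1. Factors without overlap ranged from 3 to 5 between brain and NMO blood, 0 to 1 between the blood groups, 0 to 3 between brain and normal blood (3, Cebpd, Klf2 and Pou2f2, without Nor_Bl_mono 3) and 0 to 1 against both blood groups.

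Of the log2 differences of single factors under an alternative, 641 kept their sign and 34 changed it, none of these past the unadjusted threshold. With limma-voom, Cebpb became -0.070 between brain and NMO blood, and between the blood groups Spi1 became 0.022 and Cebpd 1.03. With the replicate block, Pou2f2 became 0.33 between brain and NMO blood and Klf6 -0.0064 between the blood groups. Klf6 between brain and normal blood became 0.017 with RLE factors, 0.017 with DESeq2 and 0.051 with library sizes alone. The other 26 changes of sign came from leaving out 1 library. Between brain and NMO blood the values then ran from -0.25 (without NMO_Br_mono 1) to 0.43 for Cebpb, from -0.40 to 0.12 (without NMO_Bl_mono 1) for Klf6 and from -1.07 to 0.42 (without NMO_Bl_mono 1) for Pou2f2. Between the blood groups they ran from -0.12 (without NMO_Bl_mono 1) to 0.55 for Cebpb, from -4.18 to 1.81 (without Nor_Bl_mono 3) for Cebpd, from -0.55 (without NMO_Bl_mono 1) to 1.15 for Klf2, from -0.23 (without NMO_Bl_mono 1) to 0.33 for Klf6 and from -1.37 to 0.14 (without NMO_Bl_mono 3) for Pou2f2. Between brain and normal blood they ran from -0.066 to 0.74 for Spi1 and -0.022 to 0.63 for Cebpb, both lowest without NMO_Br_mono 1, from -0.40 to 0.21 (without Nor_Bl_mono 1) for Klf6 and from -0.018 (without Nor_Bl_mono 3) to 0.62 for Nr4a1. Against both blood groups they ran from -0.14 to 0.52 for Cebpb and -0.40 to 0.053 for Klf6, each crossing 0 without NMO_Br_mono 1. The estimates of Klf2 stayed negative, and those of Cebpa, Cebpd and Klf4 positive, in all alternatives run for the 3 brain comparisons. A pseudocount of 0.1 changed the closest genes of 6 of the 9 factors. The fit on the compared groups alone was not run against both blood groups, since all libraries are in that comparison.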
